A study of Mus musculus with 3 samples.

Results

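The genes examined here build the coats that carry proteins from the endoplasmic reticulum (ER) to the Golgi and the machinery that releases secretory granules. They were taken as a fixed list of 49 mouse genes, 28 for ER to Golgi transport and 21 for granule release. Where several probe sets named a gene, the one with the highest mean represented it. A probe set naming the gene alone was found for 47 of the 49, out of 18194 genes in all. Sytl5 and Itpr1, both on the granule list, had none and are not analysed here.

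RNA came from 3 lineages of the mouse gastric unit, collected by laser-capture microdissection with a 7.5 µm spot and measured on 1 Affymetrix Mouse Genome 430 2.0 array each. Parietal cells, the acid-secreting cells, were recognised by DBA lectin binding and autofluorescence and were taken from the pit zone. Pit cells, which secrete surface mucus, were E-cadherin-positive and DBA-negative cells at the apex of those gastric units. Zymogenic (chief) cells, which store digestive enzymes in granules, were E-cadherin-positive cells without GSII or DBA binding at the base of corpus units on other slides, so that a difference of that array and one between slides cannot be told apart. Each lineage yielded 3000 to 5000 cells from 4 to 5 mice, and the RNA was pooled to 20 ng and amplified. The labels name no treatment or genotype and state neither strain nor sex nor age of the mice. Since each lineage is a single pooled array, replicate error is unknown and nothing could be tested, so every difference below describes these 3 arrays. In pools of this kind, fewer cells of a type and less RNA per cell cannot be told apart.

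Proteins leave the ER in vesicles coated with COPII, in which the small GTPase SAR1 recruits SEC23 and SEC24, the layer that binds cargo, and then the SEC13 and SEC31 cage. COPI, the coatomer, returns escaped ER proteins and receptors from the Golgi. Transmembrane p24 proteins (the TMED family), KDEL receptors and lectins such as LMAN1 couple cargo to these coats. Finished secretory proteins wait in granules, which dock through RAB3 and RAB27 and their effectors and fuse when vesicle and membrane SNARE proteins pair. In zymogenic cells calcium released through inositol trisphosphate receptors triggers that fusion. In parietal cells related SNARE proteins bring the proton pump to the apical membrane.

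Values are deposited linear intensities, and sets of 3 are given in the order parietal, zymogenic and pit array. An intensity counted as detected when it exceeded 23.3, the detection floor, which is the highest of the 3 arrays' 95th percentiles over 80 probe sets of olfactory and vomeronasal receptors. Log2 differences were taken after raising values under the floor to it, so that a fold against an undetected value is a lower bound. Different probe sets of 1 gene gave log2 ratios between arrays that scattered with an SD of 0.48, a factor of 1.39. That scatter is the only measure of error in these data, and it covers measurement alone.

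The arrays were checked against markers of the lineages and of other cell types. Zymogenic markers summed to 536, 15239 and 110, with 4, 6 and 2 of 7 above the floor. Pit markers summed to 20140, 93.5 and 23960, with 7, 0 and 8 of 8 detected. Gkn1 (10493, 12.5 and 8307) and Gkn2 (7987, 8.28 and 2723) were highest on the parietal array, and the other pit markers on the pit array. Parietal markers summed to 5780, 1332 and 419, with 7, 5 and 3 of 12 detected. Of the 7 detected on the parietal array, Atp4b (4402, 793 and 102), Car2, Clic6 and Ckmt1 were highest there. The others, Atp4a (214, 261 and 12.5), Kcnq1 and Slc4a2, were highest on the zymogenic array. The parietal array therefore carried transcripts of pit markers, and the zymogenic array some of parietal ones. Endocrine markers summed to 57.8, 984 and 81.4, with 0, 5 and 1 of 11 detected. The pancreatic acinar, endothelial and erythroid lists had 0 detected members on every array. Mucous neck markers summed to 404, 23.1 and 113, fibroblast markers to 283, 132 and 77.3, smooth muscle markers to 125, 195 and 138, and leukocyte markers to 193, 170 and 88.2.

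Of 28 ER to Golgi members, 20 were detected somewhere and 14 on every array, as were 4138 and 1186 of all 18194 genes. Of those 14 members, 9 spread less than 2-fold from the highest to the lowest array, with a median range of 1.67-fold over the 14. The range over the 1186 genes was not computed, so these members cannot be called more even than others. The 6 members at least 2-fold apart between some pair of arrays were 5 cargo receptors (Tmed3, Tmed6, Tmed10, Kdelr1 and Lman1) and the coatomer subunit Cope, where 9.46% of all genes were that far apart. The p24 proteins Tmed6 and Tmed3 exceeded both other arrays at least 2-fold on the zymogenic array, and no other member of the list was 2-fold above or below both other arrays in any lineage. Of 19 measured granule release members, 12 were detected somewhere and 2, Rab3a and Vamp3, on every array. The parietal array detected 10 granule genes, the pit array 9 and the zymogenic array 4. ER to Golgi genes were detected in similar number, 17, 15 and 18 in that order. Out of all 18194 genes the counts were 2809, 2616 and 2285 in the same order, so zymogenic detection was also lowest genome-wide. Both lists counted values near the floor, such as Stxbp2 (24.6, parietal) and Sec23b (23.5, zymogenic).

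**Figure D1:**
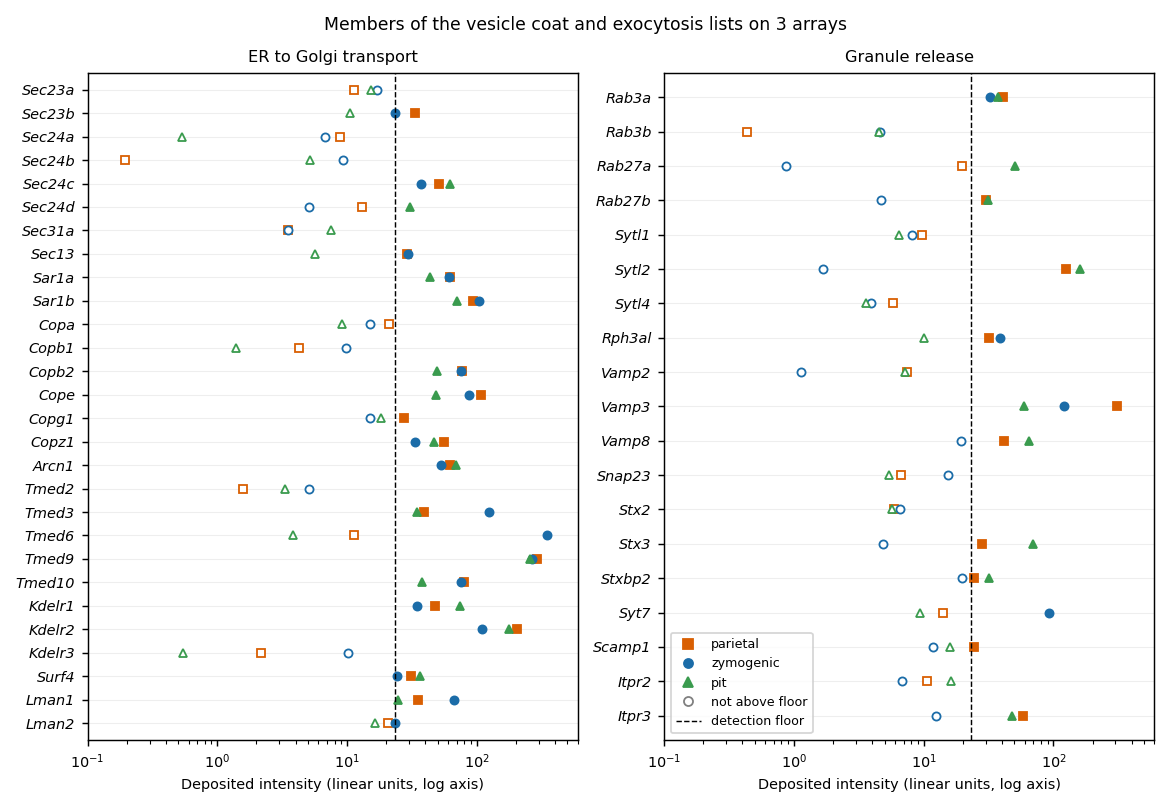
Deposited intensity (log axis) of the 47 measured members on the parietal (squares), zymogenic (circles) and pit (triangles) arrays, 1 array per lineage. Open symbols are not above the floor of 23.3 (dashed line). The zymogenic values of Tmed6 (347) and Tmed3 (125) lie apart from those of the other arrays, and Sytl2 is detected on the parietal and pit arrays alone.

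Among the COPII genes no floored difference reached 2-fold, which for members undetected on an array is a lower bound. Sar1b, a GTPase that starts coat assembly, stood at 93.5, 104 and 70.8. Its paralogue Sar1a stood at 61.7, 60.8 and 43.4. Both were lowest on the pit array, by 1.47-fold and 1.42-fold between the extremes, so the arrays lay close together for both transcripts. Sec24c, a cargo-binding subunit, had its highest value on the pit array, with 51.4, 37.1 and 61.8. Sec24d, another such subunit, was detected on the pit array alone, at 30.4, close to the floor. Sec23b, the partner of SEC24 in the inner coat, was at 33.1, 23.5 and 10.5 and Sec13, of the outer cage, at 28.9, 29.3 and 5.65, both above the floor on the parietal and zymogenic arrays and undetected on the pit array, so that their distance from it is not bounded above. Sec23a, Sec24a, Sec24b and Sec31a were under the floor on all 3 arrays, where values carry no order.

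Most coatomer genes detected on every array also spread less than 2-fold. Cope, the epsilon subunit, was the one coatomer gene 2-fold apart between arrays, with 107, 87.5 and 48.2, a 2.22-fold range. Copb2, the beta-prime subunit that binds the dilysine signals of cargo, stood at 77.4, 75.3 and 49.3. In both genes the parietal and zymogenic arrays lay above the pit array. Copz1, the zeta subunit, stood at 55.9, 33.3 and 46.4, and Arcn1, the delta subunit, at 62.0, 52.7 and 69.5. With the deposited scaling these had their lowest value on the zymogenic array. For Arcn1, and for Copz1 against the pit array, that difference did not exceed the probe set scatter. With quantile normalization, zymogenic minus parietal for Arcn1 was 0.35 (log2) in place of -0.23. Whether the subunits of this complex shared 1 order of lineages is thus not settled. Copg1 was detected on the parietal array alone, at 27.4, and Copa and Copb1 nowhere.

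The p24 family contained the largest difference of the list. Tmed6 stood at 11.3, 347 and 3.81, at least 14.9-fold higher in the zymogenic pool, with no further probe set to compare. Tmed3 stood at 39.1, 125 and 34.7, 3.18-fold above the higher of the others. Its further probe set had the same peak, at 16.3, 103 and 27.6. With the deposited scaling, the zymogenic value of Tmed3 lay above the others by more than the probe set scatter. That scatter was taken over detected values and does not cover Tmed6, which was undetected on the other arrays.

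The other p24 members gave different patterns. Tmed10, a core member of the p24 complex, stood at 79.5, 75.1 and 37.9, lowest on the pit array by 2.09-fold. Tmed9 was even, at 293, 266 and 256, though a further probe set read 129, 82.3 and 57.4. Tmed2 was under the floor on all 3 arrays. High zymogenic values were therefore seen for 2 of the 5 p24 members listed, and the even values of Tmed9 depended on the probe set.

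Retrieval and lectin receptors went both ways. Lman1, the lectin also called ERGIC-53 that exports glycoproteins from the ER, had its highest value on the zymogenic array, with 35.0, 66.7 and 24.6, 1.90-fold above the parietal and 2.71-fold above the pit array. Its 4 further probe sets were under the floor on all arrays, and with BioB and BioC, the hybridisation controls, setting the scale, zymogenic minus parietal was -0.30 (log2) in place of 0.93. Kdelr1, which returns proteins ending in KDEL to the ER, had its highest value on the pit array, with 47.3, 34.5 and 74.6, a 2.16-fold range. Kdelr2 stood at 204, 110 and 178, lowest on the zymogenic array, but its further probe set was detected on the zymogenic array alone, at 26.2, so its probe sets disagreed. Surf4, an export receptor for soluble cargo, stood at 31.1, 24.1 and 36.4, and its further probe sets at 28.7, 22.8 and 39.5 and at 32.1, 12.2 and 38.0 kept that order. Lman2, a lectin of the same family as LMAN1, was at the floor, at 20.6, 23.4 and 16.3. Kdelr3 was not detected. With the deposited scaling, high zymogenic values of Tmed3, Tmed6 and Lman1 thus stood beside lower ones of Kdelr1 and, with 1 of its probe sets, Kdelr2.

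The calls were few, and how they stood to the background depended on the genes they were read against. In the zymogenic pool 2 of 28 ER to Golgi members exceeded both others 2-fold, as did 1.57% of all genes. Many genes are not detected anywhere and cannot be called, so the comparison was repeated with genes whose mean over the 3 arrays exceeded the floor. There 2 of 15 members were called, against 9.67% of 2636 genes, which is near the background. At least 2-fold between any pair of arrays were 6 of the 28 members, against 9.46% of all genes, and 6 of the 15, against 63.6%. The first share lay above its background and the second below. A gene such as Tmed6 entered the 15 only through its zymogenic value, so it had to differ.

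Medians over the lists moved with the filter and the scaling. Over the 15 ER to Golgi members with a mean above the floor, the median log2 difference was 0.49 for zymogenic minus pit, -0.14 for zymogenic minus parietal and 0.19 for parietal minus pit. Over the 2636 genes the same medians were -0.26, -0.56 and 0.10, so the members lay above them by 0.74, 0.42 and 0.090. For the 10 granule members the medians were -0.75, -0.30 and -0.18, and their distances from those of all such genes were -0.50, 0.27 and -0.29. These medians depend on the filter: of the 10 granule members 2 were detected on every array, and others, such as Sytl2, Rab27a and Stx3, entered only through their parietal or pit values. They are given as a description and support no order of the lineages. After quantile normalization the zymogenic minus pit values relative to all genes were 0.85 and -0.41, over 15 and 8 members passing the filter. They were 0.055 and -0.26, over 19 and 12 members, when BioB and BioC set the scale. The size for ER to Golgi genes thus changed with the scaling and the members passing under it, which were not separated. For granule genes the zymogenic minus parietal distance turned from 0.27 to -0.16 with quantile normalization. Over all measured members, undetected ones at the floor included, every one of these medians was 0, as it was over all 18194 genes.

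**Figure D2:**
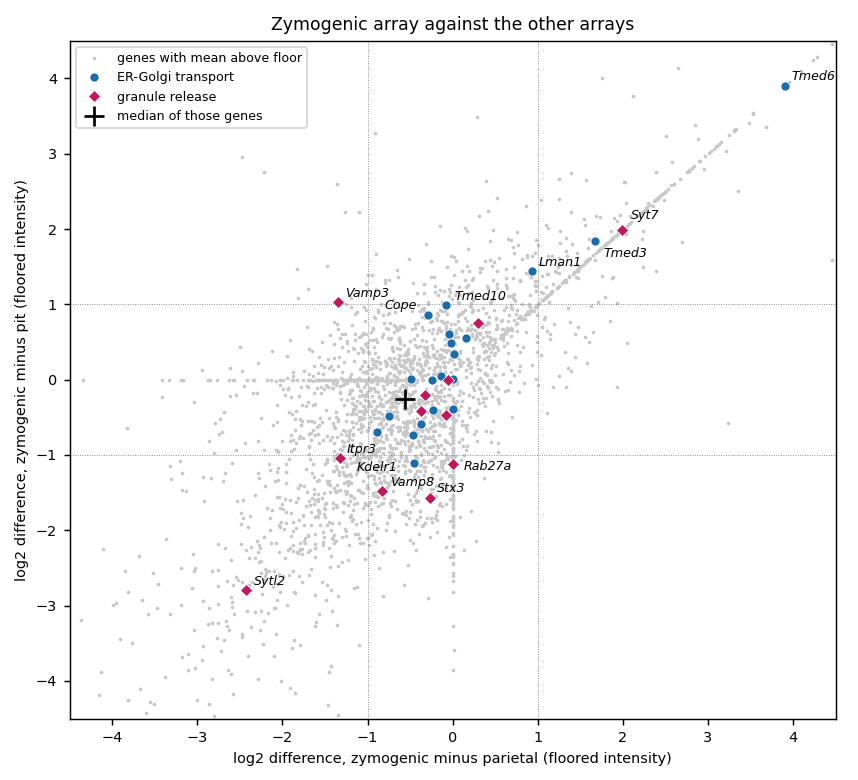
Log2 difference of the zymogenic array from the parietal (horizontal) and pit (vertical) array, on floored intensities, for detected members of both lists (circles, ER to Golgi; diamonds, granule release) over the 2636 genes with a mean above the floor (grey; 72 lie outside the axes). Members at least 2-fold apart between any pair of arrays are named, dotted lines mark 2-fold, and the cross is the grey genes' median (-0.56 and -0.26); points on the diagonal or on a zero line include genes at the floor on 1 or more arrays.

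Granule Rab proteins and their effectors were detected mostly outside the zymogenic array. Sytl2, a synaptotagmin-like effector of RAB27 that tethers granules to the plasma membrane, stood at 125, 1.68 and 161, so that the zymogenic value lay at least 5.36-fold under either other. It has no further probe set. Rab27a, which brings granules to the cell cortex, stood at 19.7, 0.865 and 50.6, detected in the pit pool alone and at least 2.18-fold higher there. Rab27b, its paralogue in secretory cells, stood at 30.0, 4.65 and 31.1, detected on the parietal and pit arrays just above the floor. These 3 genes were thus not detected on the zymogenic array. The 3 further probe sets each of Rab27a and Rab27b were under the floor on all arrays and give no order.

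In the RAB3 branch the zymogenic array detected both genes seen anywhere. Rab3a, the best known RAB3, stood at 40.6, 32.4 and 37.2, and a further probe set, detected on the pit array alone, at 20.4, 14.0 and 33.5. Rph3al, the effector Noc2 that binds RAB3 and RAB27, stood at 31.7, 39.0 and 10.03, detected on the parietal and zymogenic arrays, at least 1.68-fold above the pit array on the zymogenic one. For Rab3a the range was 1.25-fold. Rab3b, Sytl1 and Sytl4 were not detected.

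SNARE genes other than Vamp3 were detected on the parietal and pit arrays alone. Stx3, an apical membrane syntaxin, stood at 28.0, 4.85 and 69.0, the pit value 2.47-fold above the next. Vamp8, the vesicle SNARE of many exocrine granules, stood at 41.3, 19.5 and 65.1, at least 2.80-fold lower on the zymogenic than on the pit array. Stxbp2, the Munc18-2 protein that escorts syntaxin 3, stood at 24.6, 19.8 and 32.1, around the floor. These 3 partners of apical fusion each had their highest value on the pit array and were not detected on the zymogenic array with these probe sets. A further probe set of Stxbp2 was instead detected on the zymogenic array alone, at 26.1. Vamp2, Snap23 and Stx2 were under the floor everywhere.

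Vamp3, a vesicle SNARE of recycling endosomes, was detected on all 3 arrays, with probe sets that disagreed. The probe set of highest mean read 308, 121 and 59.2, the parietal value 2.55-fold above the next. Further ones read 163, 32.7 and 80.7, 70.1, 18.5 and 63.0, and 63.3, 20.5 and 56.6. In these 4 the parietal array had the highest value, but in 3 of them the zymogenic array was lowest. With transcript-specific probe sets alone, zymogenic minus pit was -1.44 where the probe set of highest mean gave 1.03, and the parietal value was no longer 2-fold above that of the pit array (0.15). The order of zymogenic and pit cells for Vamp3 is thus not settled.

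Transcripts of the calcium sensor Syt7 and the calcium channel Itpr3 differed between the arrays in opposite directions. Syt7, a synaptotagmin that senses calcium at granules, stood at 14.1, 92.3 and 9.34, detected in the zymogenic pool alone and at least 3.97-fold higher there. Further probe sets read 10.8, 53.7 and 6.80, and 18.4, 40.1 and 17.2. Each of these 3 was detected on the zymogenic array only. Itpr3, a calcium release channel of the ER, stood at 58.5, 12.5 and 47.9, the zymogenic value at least 2.06-fold under both others. Itpr2 was not detected with any of its 6 probe sets, and Scamp1, a membrane protein of secretory carriers, was at the floor, at 24.2, 11.8 and 16.0. The endocrine granule gene Chga stood at 22.7, 453 and 14.1 and Ghrl, the ghrelin gene, at 7.43, 298 and 29.2. Endocrine cells also use synaptotagmin 7, and their part in the zymogenic value of Syt7 was not tested.

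**Figure D3:**
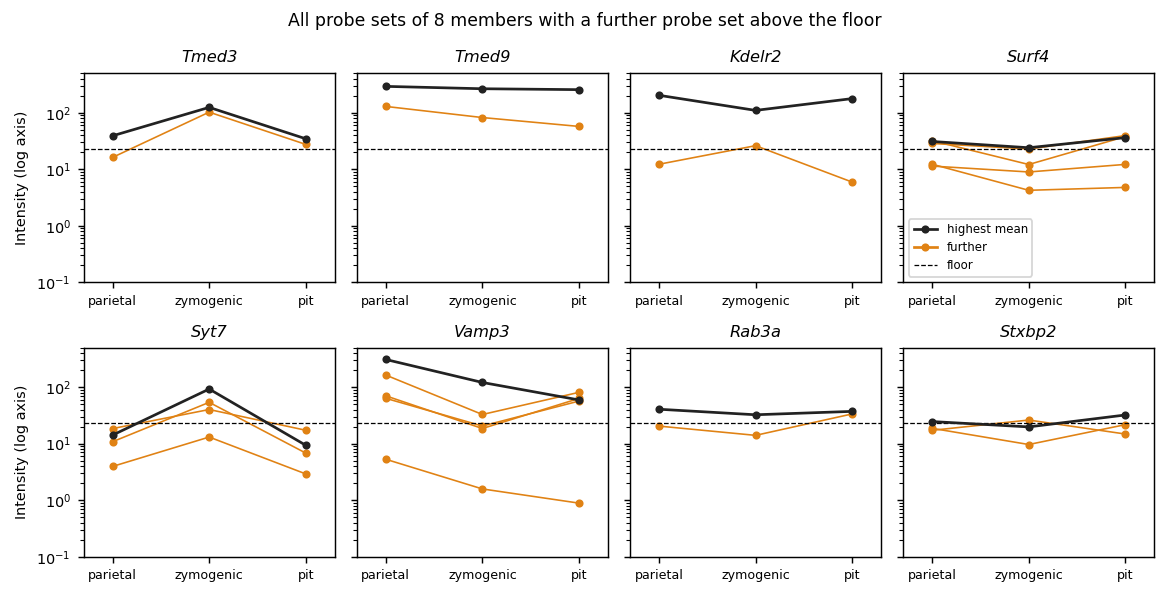
Intensity (log axis) on the parietal, zymogenic and pit arrays of all probe sets of the 8 members for which a second one was detected (floor dashed, 23.3). Black marks the probe set of highest mean and orange the others; probe sets of Tmed3 and Syt7 peak together on the zymogenic array, while those of Vamp3, Kdelr2 and Stxbp2 give different orders.

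Counted together, granule members were called in every lineage. Of 19, Syt7 was at least 2-fold above both other arrays on the zymogenic array (background 1.57%), Rab27a and Stx3 on the pit array (1.31%) and Vamp3 on the parietal array (1.7%). Sytl2 and Itpr3 were at least 2-fold below both on the zymogenic array (2.52%) and Vamp3 on the pit array (0.594%). In the parietal pool 0 members of either list lay 2-fold below both, where 0.0879% of all genes and 0.607% of the 2636 did. Among the 10 members with a mean above the floor these same calls stood beside backgrounds of 9.67%, 8.8%, 11.5%, 17.4% and 4.1% of 2636 genes in that order, and the 2 of 10 below on the zymogenic array were near theirs. At least 2-fold between any pair of arrays were 7 of 10, against 63.6%. With 10 members, 1 or 2 calls in a direction are too few to set the list apart from these shares.

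Several of these calls moved with the processing. Rab27a was called in 3 of 8 alternative settings, Stx3 and Itpr3 in 4, Vamp3 above on the parietal array in 5 and below on the pit array in 3, and Tmed3 in 5 of the 7 in which it was measured. Tmed6 and Syt7 were called in 7 of 8, and Sytl2 in 6 of 7, all lost only where the floor was raised to 868, above every member's value. With quantile normalization both other arrays minus pit gave -0.96 (log2) for Rab27a, just short of 2-fold, and with the BioB and BioC scaling parietal minus pit for Stx3 was -0.071 in place of -1.30. Under that scaling Tmed3 was 0.44 higher on the zymogenic than on the parietal array in place of 1.67.

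Start-site sequences are shown for 4 of the genes called against both other arrays, Tmed6 and Tmed3 on the zymogenic array and Stx3 and Rab27a on the pit array. RefSeq windows of GRCm38.p6 were found for 24 of the 28 ER to Golgi genes and 15 of the 21 granule genes, and the 250 bases before each start were searched on both strands. One motif was CATATG, an E-box form that the zymogenic cell factor MIST1 (Bhlha15) is known to bind. Letters found in elements of the unfolded protein response were searched as CCACG, as the longer string TGACGTG and as the full ER stress element. That element is the letters CCAAT, then 9 bases of any kind, then the short string named before, so that the searches overlap. The core promoter motif was TATAAA. Each sequence runs 5′ to 3′ in the direction of the gene, with matches in capitals.
Tmed6, chr8:107065645-107065894, minus strand: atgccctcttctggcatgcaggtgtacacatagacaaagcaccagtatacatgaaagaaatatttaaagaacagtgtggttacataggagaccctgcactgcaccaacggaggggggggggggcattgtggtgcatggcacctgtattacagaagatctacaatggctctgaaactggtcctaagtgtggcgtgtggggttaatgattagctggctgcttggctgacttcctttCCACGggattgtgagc
Tmed3, chr9:89705044-89705293, minus strand: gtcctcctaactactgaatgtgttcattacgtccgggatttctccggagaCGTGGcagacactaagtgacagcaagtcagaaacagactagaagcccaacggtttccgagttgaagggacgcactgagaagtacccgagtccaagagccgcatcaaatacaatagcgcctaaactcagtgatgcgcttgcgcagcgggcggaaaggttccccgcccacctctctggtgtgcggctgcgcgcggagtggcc
Stx3, chr19:11819404-11819653, minus strand: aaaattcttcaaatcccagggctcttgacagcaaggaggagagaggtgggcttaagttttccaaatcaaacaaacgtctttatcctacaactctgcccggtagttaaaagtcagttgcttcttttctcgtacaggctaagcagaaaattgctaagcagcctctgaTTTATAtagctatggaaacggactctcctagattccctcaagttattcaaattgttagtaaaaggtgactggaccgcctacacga
Rab27a, chr9:73063898-73064147, plus strand, the second of 2 windows: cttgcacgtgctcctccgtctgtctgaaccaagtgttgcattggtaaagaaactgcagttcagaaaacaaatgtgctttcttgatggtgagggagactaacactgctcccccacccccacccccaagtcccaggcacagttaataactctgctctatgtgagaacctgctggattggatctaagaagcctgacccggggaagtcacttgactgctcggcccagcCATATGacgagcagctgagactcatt

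The Tmed6 window held CCACG on the gene's strand and the Tmed3 window on the other strand, and neither held CATATG. The Stx3 window held TATAAA on the other strand and the second Rab27a window CATATG. The first Rab27a window, which is not shown, held none of the motifs. Bhlha15 itself stood at 2.49, 109 and 0.525, and binding of MIST1 to any of these windows was not tested. Over the lists, CCACG was in 16 of 26 windows of ER to Golgi genes and 8 of 19 of granule genes, against 28.3% of 32851 windows. TGACGTG was in 3 of the 26, those of Sec24d, Copb1 and Kdelr3, and in 0 of the 19, against 1.65%. CATATG was in 1 window of each list, against 3.46%, TATAAA in 1 and 3, against 12.4%, and the full ER stress element in 0 of both, against 0.113%. These matches describe letters alone, and windows were not matched for base composition.

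Other genes of the same pathways, from a wider list, were called on the zymogenic array alone. Of 49 measured further ER to Golgi genes, 4 exceeded both other arrays 2-fold there (background 1.57%) and 2 lay below (2.52%). Among the 21 with a mean above the floor these 4 and 2 stood against 9.67% and 17.4%. Their zymogenic minus pit median was -0.23, beside the -0.26 of all such genes and the 0.49 of the listed members. For zymogenic minus parietal it was 0.12, beside the -0.56 of all such genes and the -0.14 of the listed members. For parietal minus pit the 3 medians were -0.039, 0.10 and 0.19. These medians depend on the filter, which genes such as Copz2 passed only through their zymogenic value, and support no difference between the lists. Over all measured genes of either ER to Golgi list, each median was 0. Stx5a, the Golgi syntaxin that receives ER vesicles, stood at 58.5, 298 and 60.1. Ergic1, a membrane protein of ER to Golgi carriers, stood at 9.85, 132 and 10.1, and a further probe set at 34.4, 54.5 and 26.9 in the same order of highest. Sec16a, the scaffold of ER exit sites, stood at 27.1, 75.3 and 27.8 and Copz2, a second zeta coatomer subunit, at 5.93, 70.7 and 7.17. In Stx5a and Sec16a the parietal and pit values nearly coincided. In Ergic1 and Copz2 both were under the floor with the probe set of highest mean and give no order. Arf1, the GTPase that recruits COPI, went the other way at 167, 64.7 and 182, and Tmed4, another p24 protein, at 57.9, 20.1 and 48.9.

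Of 77 measured further granule genes, 1 lay 2-fold or more above both others in the zymogenic pool (1.57%) and 6 below (2.52%). Syt11, a synaptotagmin that does not bind calcium, stood at 9.01, 97.7 and 3.61, but its 4 further probe sets were under the floor. Below were Scamp5 (122, 12.3 and 154), a secretory carrier protein, the synaptophysin-like Sypl (78.6, 19.3 and 80.6), Syngr1 (47.7, 20.5 and 73.6), a synaptogyrin, the syntaxins Stx7 (71.2, 20.5 and 70.6) and Stx4a (66.5, 15.3 and 65.7), and Myo5b (61.3, 9.74 and 48.9), the motor of RAB11 vesicles. A further probe set of Sypl was also lowest on the zymogenic array, at 39.3, 8.32 and 25.8. On the parietal and pit arrays 0 further genes of either list were called in either direction. Of all genes 1.7% and 1.31% were above both others there, and 0.0879% and 0.594% below. Among the 2636 genes with a mean above the floor these shares were 11.5%, 8.8%, 0.607% and 4.1%. Of the further genes, 21 of 49 for ER to Golgi transport and 46 of 77 for granule release were detected nowhere and could not be called. Among genes with a mean above the floor the 6 granule genes below on the zymogenic array stood in 18, against 17.4%. Pit markers were detected on the parietal and pit arrays, 0 of 8 on the zymogenic array, and their part in these shared parietal and pit values was not tested.

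**Figure D4:**
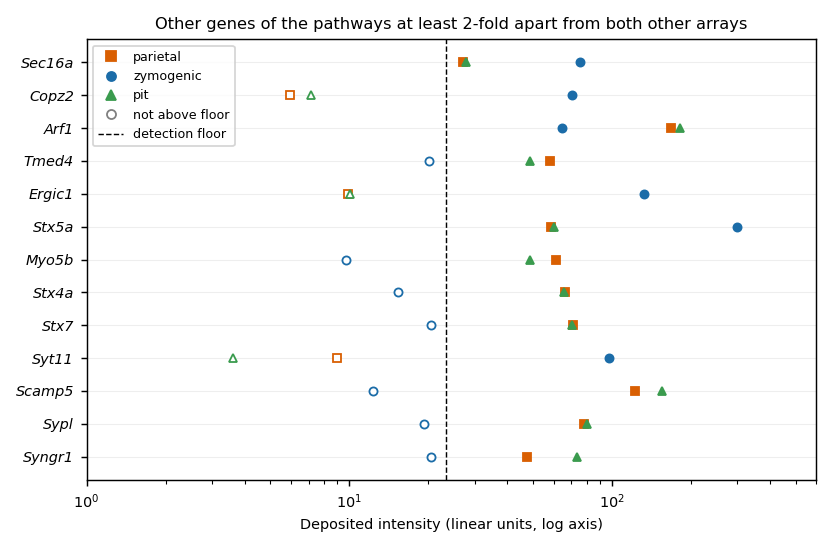
Intensity (log axis) of the 13 further pathway genes at least 2-fold above or below both other arrays, all of them on the zymogenic array (circles), with parietal (squares) and pit (triangles) values; open symbols are not above the floor of 23.3 (dashed). Stx5a, Ergic1, Syt11, Sec16a and Copz2 lie to the right of the other arrays, and the other 8 to the left.

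A few known granule genes outside the list were chosen after their values were seen. Rab3d, the RAB3 of exocrine granules, stood at 52.1, 42.6 and 57.6, a 1.35-fold range, but a further probe set read 49.7, 14.5 and 63.6 and another 29.9, 22.2 and 10.1. Rab26, another granule Rab of zymogenic cells, was under the floor on all 3 arrays, at 7.34, 5.56 and 15.8. Rab11a, which serves the recycling of proton pump vesicles in parietal cells, stood at 67.6, 18.5 and 34.5, highest on the parietal array by 1.96-fold over the pit and at least 2.90-fold over the zymogenic array. Cckar, the cholecystokinin receptor that raises calcium in enzyme-secreting cells, was detected on the zymogenic array alone, at 2.47, 44.2 and 2.20, at least 1.90-fold higher.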

How the data were processed

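RNA pools of 3 gastric lineages were measured on 1 array each. The authors deposited linear intensities for every probe set; summarisation and scaling, not given in the sources used here, stay unknown. Of 45101 probe sets, 34958 name 1 gene and 932 several, which were left out. Symbols of 34754 were updated through RefSeq (GRCm38.p6, for names and start windows). No rescaling was applied in the main setting. Values were floored at 23.3, and log2 differences and counts of genes at least 2-fold apart were taken. No test or p-value is possible with 1 array per lineage, and precision is limited by that number of arrays. Probe set scatter was taken over 785 combinations of gene and array pair.

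The members and the gene and marker lists were chosen with earlier results of these data known. Every member is accounted for; values are printed for members 2-fold apart between any arrays or detected on all, and other pathway genes are named where called against both other arrays. Genes of the last paragraph of the report, single markers and motifs were chosen after their values were seen. Alternatives were 3 scalings, 2 floors, the floor as a pseudocount, 2 choices of probe sets, a filter on low members and 2 fold thresholds; combining scaling with the filter was added after seeing the data. Python 3.11.15, numpy 2.4.6, pandas 2.3.3 and matplotlib 3.10.9 were used. The calling code was run on simulated data with less noise than the probe set scatter, which gives no rate of false calls here.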

Additional observations from a re-analysis of the deposited data

How the results depend on the processing

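Beside the report's values, these changed with the processing, and the cause was not tested except where named. Counts are of members at least 2-fold from both other arrays. For ER to Golgi genes on the zymogenic array, 2 were above in the main setting, 3 with quantile normalization and 1 with BioB and BioC scaling, with transcript-specific probe sets or at 4-fold, and 0 with the 99th percentile as floor (868), which lies above every member. With BioB and BioC scaling 13 were above on the parietal array, 1 below on the zymogenic and 2 below on the pit array, in place of 0 each; with the 90th percentile floor (10.9) 1 was above and 2 below on the pit array. For granule genes, the parietal count above went from 1 to 5 with BioB and BioC scaling and to 0 with quantile normalization, the 99th percentile floor, transcript-specific probe sets, 3-fold or 4-fold. The zymogenic count above went from 1 to 0 with the 99th percentile floor or at 4-fold. The zymogenic count below went from 2 to 1 with quantile normalization, the pseudocount, 3-fold or 4-fold, to 3 with BioB and BioC scaling, to 5 with the 90th and to 0 with the 99th percentile floor. The pit count above went from 2 to 1 with quantile normalization and to 0 with BioB and BioC scaling, the 99th percentile floor, the pseudocount, the mean of all probe sets, 3-fold or 4-fold. The pit count below went from 1 to 2 with the 90th percentile floor and to 0 with 1 common median, the 99th percentile floor, the pseudocount, the mean of all probe sets, transcript-specific ones, 3-fold or 4-fold.

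Medians over all members, 0 in the main setting, moved by over the probe set scatter with BioB and BioC scaling, to -1.15 (ER to Golgi) and -0.93 (granule) for zymogenic minus parietal and 1.04 (ER to Golgi) for parietal minus pit, and to 0.49 and -0.75 for zymogenic minus pit with members of mean above the floor alone. Among those, with scaling changed too, the ER to Golgi median of zymogenic minus parietal moved to 0.56 with quantile normalization and -1.31 with BioB and BioC, that of parietal minus pit to 1.42 with the latter, and the granule medians to -0.26 (zymogenic minus pit), -1.37 (zymogenic minus parietal) and 0.99 (parietal minus pit). The members passing the filter also changed with the scaling. BioB and BioC scaling itself moved the medians of all genes with a mean above the floor. They became 0 for zymogenic minus pit, -1.43 for zymogenic minus parietal and 1.20 for parietal minus pit. For single members, 396 differences moved by less than the scatter, 136 by more, and 2 that had been at least 2-fold changed sign, both of Vamp3 in zymogenic minus pit, to -0.43 with the mean of all probe sets and -1.44 with transcript-specific ones. Another 25 differences under 2-fold changed sign too, 14 of them with quantile normalization and 8 with BioB and BioC scaling; under the latter Lman1 zymogenic minus parietal went from 0.93 to -0.30 and parietal minus pit from -0.66 to 0.58 for both Kdelr1 and Vamp8. Values near the floor, such as those of Sec24d, Lman2, Stxbp2 and Scamp1, are limited by signal over background. No paired analysis was possible because each group has 1 array and the result comes from no test.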
